A study of Mus musculus with 6 samples.

Results

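The genes that carry a cell through mitosis were compared between pRb-deficient and pRb-expressing mouse osteoblast cultures. The set was a list of 50 genes named by symbol, covering mitotic entry, the spindle checkpoint, the kinetochore, mitotic kinesins, condensin, anaphase and cytokinesis. A gene was read from the probe sets (groups of short probes on the array) annotated with that symbol alone, and where several carried it, the one with the highest mean signal over the 6 arrays was used. A probe set was found for 49 of the 50 genes, out of 18193 genes with a probe set, and all 49 entered the test, which covered 16308 genes. Ccnb1, the gene of cyclin B1, was the member without a probe set of that single symbol.

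Total RNA of 3 pRb-deficient and 3 pRb-expressing cultures was hybridised to Affymetrix mouse arrays, and signals are MAS5 intensities, scaled by the authors to one target mean on every array. The cells were MC3T3 osteoblasts, that is, calvarial osteoblasts of mice at embryonic day 18.5 that were immortalised with the 3T3 passaging protocol. Per the study, cells of both groups were harvested while they were proliferating. The authors give this as a possible reason why cell cycle did not stand out among the pathways in their microarray analysis. The mice descended from flox19-RB1 animals on a C57BL/6 background crossed to 2.3- and 3.6-Col1a1-Cre transgenics, in which the collagen I promoter drives Cre, the F1 RBf19/WT;Col1a1-Cre mice having been self-crossed. The pRb-deficient cultures carry the genotype label Rb Knockout and the pRb-expressing cultures the label Wild type, and per the study's methods the Wild type cells came from control littermates. Which Cre line a culture carried, and how many separately immortalised lines each group held, is not given in the sources used here, so cell line and genotype cannot be told apart and p-values measure only the spread between the cultures of a group.

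The retinoblastoma protein pRb binds E2F transcription factors and holds back the genes of the G1/S transition. Genes of G2 and mitosis are read out later in the cycle by complexes built on the MuvB core, first with B-Myb and then with FoxM1, at promoter elements called CHR (cell cycle genes homology region), often next to CCAAT boxes bound by NF-Y. Their transcripts peak in G2 and mitosis, so in RNA of a whole culture fewer cells in those phases and less RNA per cell cannot be told apart.

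Rb1, the deleted gene, had signals of 143.1, 127.1 and 123.5 in the pRb-deficient cultures, against 1124, 1119 and 1106 in the pRb-expressing cultures, a log2 fold change of -3.09 (SE 0.10, limma adjusted p = 4.94e-06). The 6 cultures thus matched their labels, although the place of this probe set relative to the floxed exon was not examined. Arrays correlated at 0.974 to 0.984 within a group and at 0.912 to 0.917 between groups, array medians lay between 107.7 and 119.5, and the ratio of 3' to 5' probe sets was 1.14 to 1.31 for beta-actin and 0.736 to 0.766 for Gapdh. The median log2 fold change of all genes tested was -0.09. Of the 9 osteoblast markers tested (of 12 listed), 8 were lower in the pRb-deficient cultures and Phex was higher. All 9 passed at a limma adjusted p under 0.05, beside 41.9% of all genes tested. Bone sialoprotein (Ibsp) read 9.2, 0.8 and 0.5 in pRb-deficient against 2030, 2007 and 2895 in pRb-expressing cultures, so this defining marker was at the floor in the pRb-deficient cells, whereas Col1a1 stayed at 13388, 10831 and 8616 in pRb-deficient against 19145, 20551 and 16759 in pRb-expressing cultures.

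Mitotic genes differed between the groups in both directions. By limma with Benjamini-Hochberg adjustment over all probe sets tested (threshold 0.05), 8 members rose in pRb-deficient cultures, 8 fell and 33 were not called. Called members were thus 16 of 49, or 32.7%, beside 41.9% of all genes tested, with 18.5% of all genes higher and 23.4% lower. The median log2 fold change of the members was 0.01, with a range of -1.07 to 1.26. The signals of the groups did not overlap for 19 members, 9 higher and 10 lower, beside 53.8% of all genes tested. Only Cks2, at 2.39-fold higher, and Cenpf and Smc2, at 2.11-fold and 2.09-fold lower, passed the test with a change of at least 2-fold. Numbers in parentheses beside a gene are log2 fold changes, pRb-deficient over pRb-expressing, with limma adjusted p-values. With array quality weights 15 were higher and 14 lower, and with the median change of each chromosome removed 6 were higher and 2 lower. The counts also differed when single cultures were left out. They were 13 higher and 6 lower without pRb-deficient culture 1, 3 higher and 5 lower without pRb-deficient culture 2, and 7 higher and 15 lower without pRb-deficient culture 3. Leaving out any 1 of the 3 pRb-expressing cultures gave 3 higher and 4 lower. The 41.9% holds for the main fit, and the share of all genes called in these other fits is not given here. Whether the changes in count are particular to the mitotic genes thus cannot be told.

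**Figure D1:**
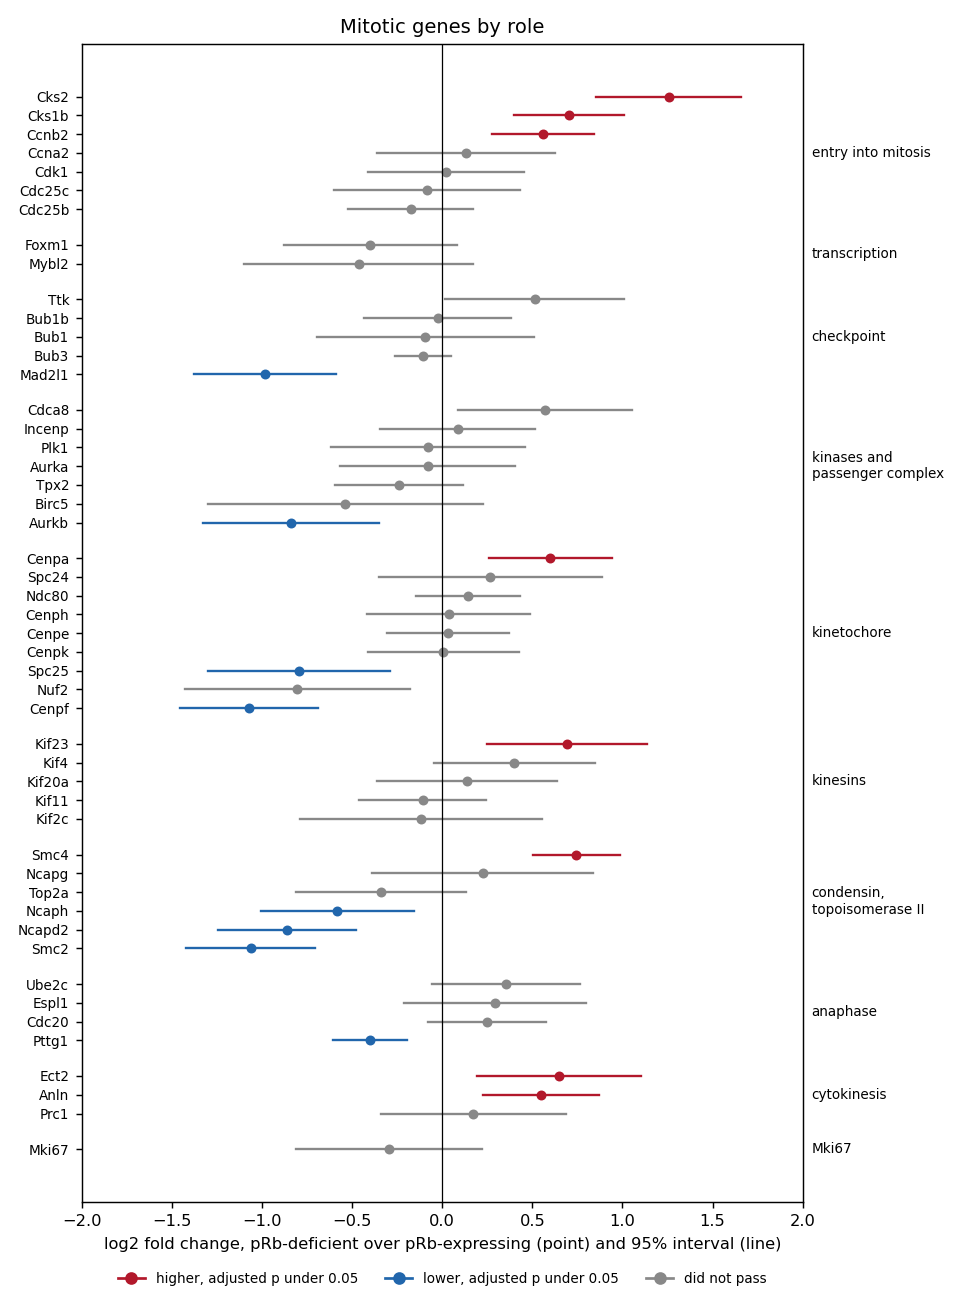
Log2 fold change of each of the 49 mitotic genes, pRb-deficient over pRb-expressing (horizontal axis; point, limma estimate; line, 95% confidence interval), grouped by role. Red marks the 8 genes higher and blue the 8 genes lower at an adjusted p under 0.05, and grey the 33 that did not pass; most roles hold members on both sides of 0.

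The clearest pattern lay inside the pRb-deficient group. In 45 of the 49 members (91.8%) pRb-deficient culture 1 had the lowest and culture 3 the highest of the 3 pRb-deficient signals, an order found in 23.3% of all genes tested and in 27.0% of those averaging 200 or more. The exceptions were Cdc25c, Ncapg, Ndc80 and Pttg1, and Pttg1 ran the other way. Relative to the mean of the pRb-expressing cultures, the median log2 signal of the members was -0.31 in pRb-deficient culture 1, -0.01 in culture 2 and 0.38 in culture 3, while the pRb-expressing cultures lay at 0.01, -0.01 and 0.01. For all genes tested the same medians were -0.08, -0.10 and -0.08 in the pRb-deficient cultures. Culture 1 was below all 3 pRb-expressing cultures for 35 of the 49 members, and culture 3 was above all 3 for 37 of them, or 71.4% and 75.5%. Of all genes tested, culture 1 was below all 3 in 43.2% and culture 3 above all 3 in 33.6%.

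**Figure D2:**
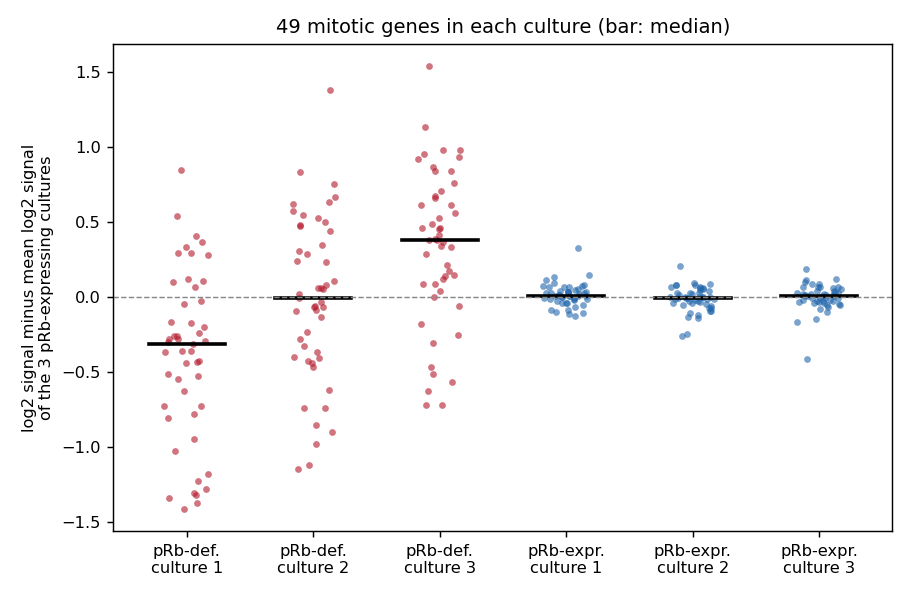
Log2 signal of the 49 mitotic genes in each culture, minus the mean log2 signal of the 3 pRb-expressing cultures (points, genes; bars, medians). The pRb-deficient medians lie at -0.31, -0.01 and 0.38 and the pRb-expressing medians within 0.01 of 0.

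Most of this spread was shared between the genes. The signal in pRb-deficient culture 3 was 1.67 times that in culture 1 at the median member, with a lowest ratio of 0.830 for Pttg1 and a highest of 2.69 for Birc5. Among pRb-expressing cultures the highest signal was 1.09 times the lowest at the median member. The median SD of log2 signal was 0.386 in the pRb-deficient group and 0.0626 in the pRb-expressing group, and it was larger in the pRb-deficient group for 49 of 49 members. Over all genes averaging 200 or more in signal those medians were 0.153 in pRb-deficient and 0.0919 in pRb-expressing cultures, the pRb-deficient SD being larger in 6666 of 9677. Once the median of the members was subtracted on each array, the member SD was 0.102 in pRb-deficient and 0.0585 in pRb-expressing cultures. This spread enters the error of each comparison between the groups.

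Other genes moved with these cultures. Ddit3, the stress-induced transcription factor CHOP, read 7892, 2514 and 1211 in pRb-deficient cultures 1, 2 and 3, against 1138, 1184 and 1179 in the pRb-expressing cultures. Atf3, another stress-induced factor, read 1020, 463.3 and 131.6 in pRb-deficient against 122.1, 103.2 and 112.8 in pRb-expressing cultures. Both were highest in the culture where mitotic genes were lowest, and neither passed the test between groups (limma adjusted p = 0.146 for Ddit3 and 0.0784 for Atf3). They were the 2 of 9 tested genes of the stress and RNA quality list with that order, and Jun, Hsph1 and Dnajb1 had the order of the mitotic genes instead, Jun reading 4481, 6460 and 7105 in pRb-deficient against 998.2, 1072 and 1167 in pRb-expressing cultures. In that list 3 of 9 genes were higher (Jun, Hspa1a and Hspa1b) and 1, Fos, was lower. That is 44.4% called, near the 41.9% of all genes tested. The summed osteoblast marker signal also fell in that order within the pRb-deficient group, at 34433, 27570 and 22167, against 60920, 63453 and 58181 in pRb-expressing cultures, and 6 of the 9 markers had culture 1 highest and culture 3 lowest, beside 26.8% of all genes. The defining markers Ptprc and Itgam of blood cells and Pecam1 of endothelium were near the floor in both groups. The endothelial marker Kdr read 228.4 to 316.5 in pRb-deficient and 219.1 to 328.6 in pRb-expressing cultures, and 0 of 5 endothelial markers were called. Csf1r of blood cells read 381.4 to 478.7 in pRb-deficient and 400.8 to 462.3 in pRb-expressing cultures. Cd68 was the 1 of 5 tested blood cell markers called, at 255.2, 165.0 and 161.6 in pRb-deficient against 101.7, 117.9 and 95.9 in pRb-expressing cultures (0.86, adjusted p = 0.0278). The summed signal of the 5 was 674.6 to 849.8 in pRb-deficient and 719.8 to 747.4 in pRb-expressing cultures. The summed signal of 6 mesothelial markers was 2758, 3375 and 2712 in pRb-deficient and 170.4, 166.8 and 179.0 in pRb-expressing cultures, with no such order among the pRb-deficient cultures. Msln and Bnc1 made up most of that sum, and Krt19 was also called higher. Upk3b (-0.76), Lrrn4 (-0.44) and Wt1 (-0.09) were not called, and the median of the 6 was 0.31. What part stress, differentiation or other cells had in the mitotic signals was not tested.

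**Figure D3:**
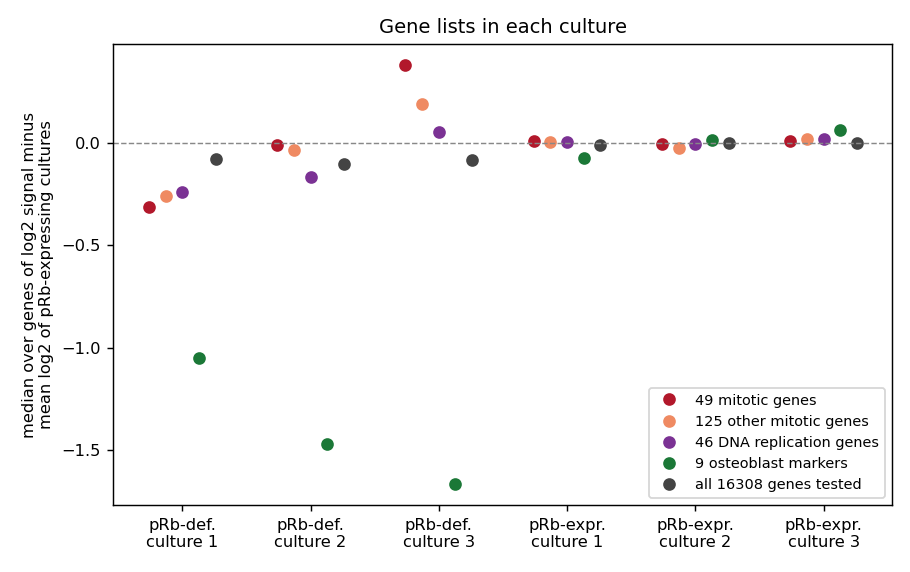
Median log2 signal of 4 gene lists and of all 16308 genes tested in each culture, minus the mean log2 signal of the pRb-expressing cultures. Among the pRb-deficient cultures the 3 proliferation lists are lowest in culture 1 and highest in culture 3, and the 9 osteoblast markers run the other way (-1.05, -1.47 and -1.67).

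The promoters of these genes share sequence. Members were picked as genes of mitosis, and such genes are known targets of the MuvB complexes and FoxM1. The sharing thus goes with the choice of the list and is not an independent result. In the window of 250 bases before to 50 after the transcription start in RefSeq (mouse build GRCm38.p6), 46 promoters of 41 members were on hand. A CHR (TTTGAA or TTCGAA, either strand) was present in 33 of the 46 (71.7%), beside 19.2% of all 32851 promoters. A CCAAT box (CCAAT, either strand) was present in 37 of the 46 (80.4%, all promoters 37.4%), and both elements in 30 (65.2%, all promoters 7.52%). The E2F motif TTTNNCGC, searched on both strands, was found in 7 of the 46 (15.2%, all promoters 5.17%). A match says only that the letters are there. Shown are 120 bases before to 30 after the start of Cks1b and Cenpf, the largest rise and the largest fall among members with a CHR on the gene's own strand, and of Cdk1, the kinase of mitotic entry. They lie on the minus strand at chr3:89418262-89418411, chr1:189688057-189688206 and chr10:69352883-69353032, are written along the gene, and have CHR and CCAAT matches of either strand (TTCAAA and ATTGG on the other one) in capitals.
Cks1b: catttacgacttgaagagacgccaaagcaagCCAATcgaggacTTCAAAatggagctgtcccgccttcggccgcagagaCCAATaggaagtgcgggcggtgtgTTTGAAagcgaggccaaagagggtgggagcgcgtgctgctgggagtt
Cenpf: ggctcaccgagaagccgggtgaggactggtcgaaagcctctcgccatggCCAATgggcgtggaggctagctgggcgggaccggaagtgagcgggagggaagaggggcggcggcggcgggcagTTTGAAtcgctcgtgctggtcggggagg
Cdk1: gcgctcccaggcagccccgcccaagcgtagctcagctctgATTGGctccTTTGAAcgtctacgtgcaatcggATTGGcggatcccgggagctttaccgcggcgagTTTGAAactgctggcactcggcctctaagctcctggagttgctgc
All 3 have a CHR close to the start and a CCAAT box upstream of it, yet Cks1b was higher in the pRb-deficient cultures, Cenpf was lower and Cdk1 did not pass the test. Among measured members with a CHR in the window, 6 of 30 were higher, 4 were lower and the median log2 fold change was 0.08. Among the 10 without one, 1 was higher, 3 were lower and the median was -0.43. Of these 10, Birc5, Mad2l1, Mybl2, Ncaph, Nuf2 and Pttg1 had estimates of -0.98 to -0.40. They lie on chromosomes 1, 2, 6 and 11, where the median log2 fold change of all genes averaging 200 or more was negative. Cenpe (0.03), Cenph (0.04), Cenpk (0.01) and Cks2 (1.26) lie on chromosomes 3 and 13, where it was positive. What part chromosome had in the difference between members with and without a CHR was not tested. The order with pRb-deficient culture 1 lowest and culture 3 highest held for 28 of those 30 and 9 of those 10.

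Of 7 measured genes of entry into mitosis 3 were higher in pRb-deficient cultures and none was lower. That is 42.9% called, near the 41.9% of all genes tested. Cks2, a small subunit that binds cyclin-dependent kinases, had signals of 5029, 7292 and 8146 in the pRb-deficient cultures, against 2814, 2775 and 2809 in the pRb-expressing cultures. Every pRb-deficient culture was thus above every pRb-expressing one, with a log2 fold change of 1.26 (SE 0.17, limma adjusted p = 0.0013), and a second probe set of the gene was also higher, at 1.23 (adjusted p = 0.000712). Its paralogue Cks1b, which also serves the SCF ubiquitin ligase in the removal of the inhibitor p27, read 9490, 12761 and 13085 in pRb-deficient against 7359, 7169 and 6968 in pRb-expressing cultures (0.70, adjusted p = 0.00504). Ccnb2, a partner cyclin of Cdk1, read 1900, 2376 and 2625 in pRb-deficient against 1505, 1575 and 1564 in pRb-expressing cultures (0.56, adjusted p = 0.0103). The kinase itself did not pass. Cdk1 read 3586, 4694 and 6175 in the pRb-deficient cultures, on both sides of the 4557, 4840 and 4521 of the pRb-expressing cultures, and its log2 fold change of 0.02 had a 95% interval of -0.41 to 0.45. The other members without a call were Ccna2 (0.13), the cyclin of S and G2 phase, and the phosphatases Cdc25b (-0.18) and Cdc25c (-0.09), which activate Cdk1.

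The G2/M transcription factors did not pass the test at the probe sets used. Foxm1 read 516.2, 672.2 and 931.0 in the pRb-deficient cultures, against 844.6, 943.9 and 928.9 in the pRb-expressing cultures (log2 fold change -0.40, limma adjusted p = 0.183). A dimmer Foxm1 probe set did pass, at 244.4, 339.4 and 474.7 in pRb-deficient against 642.7, 566.0 and 519.6 in pRb-expressing cultures (-0.75, adjusted p = 0.0459). Mybl2, the gene of B-Myb, read 167.0, 251.3 and 361.9 in pRb-deficient against 344.2, 340.6 and 339.4 in pRb-expressing cultures (-0.46, adjusted p = 0.24). For both genes the cultures 1 and 2 were below all pRb-expressing cultures, while culture 3 overlapped them for Foxm1 and exceeded them for Mybl2.

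In the spindle assembly checkpoint, which delays anaphase until chromosomes are attached, 1 of 5 genes was called (20%, beside 41.9% of all genes). Mad2l1, the gene of the Mad2 protein that sequesters Cdc20, read 1440, 1845 and 2364 in the pRb-deficient cultures, against 3741, 3645 and 3568 in the pRb-expressing cultures. The groups were far apart, at a log2 fold change of -0.98 (SE 0.17, limma adjusted p = 0.00366). The kinases Bub1 (-0.09) and Ttk (0.51), the BubR1 gene Bub1b (-0.03) and the adaptor Bub3 (-0.11) did not pass. Ttk had the largest of these 4 estimates, with 458.9, 593.0 and 827.0 in pRb-deficient against 393.1, 426.7 and 461.5 in pRb-expressing cultures and an adjusted p of 0.106. A second Bub3 probe set was called lower (-0.26, adjusted p = 0.0311).

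Among 7 genes of mitotic kinases, their activator Tpx2 and the chromosomal passenger complex, only Aurkb was called (14.3%, beside 41.9% of all genes). This kinase, which corrects faulty kinetochore attachments, read 406.7, 603.3 and 727.2 in the pRb-deficient cultures, against 1022, 933.6 and 1072 in the pRb-expressing cultures (log2 fold change -0.84, SE 0.21, limma adjusted p = 0.0176). Its partners in the passenger complex took other values. Cdca8, the gene of borealin, read 2810, 4064 and 5172 in pRb-deficient against 2678, 2528 and 2670 in pRb-expressing cultures, so that the groups did not overlap in the opposite direction, but it did not pass (0.57, adjusted p = 0.0707). Birc5, the gene of survivin, had a log2 fold change of -0.54 with a 95% interval of -1.30 to 0.22, the widest swing of the set lying behind it (1080, 1905 and 2904 in pRb-deficient against 2565, 2787 and 2554 in pRb-expressing cultures). Incenp, the scaffold of the complex, stood at 0.09, Aurka at -0.08, Plk1 at -0.08 and Tpx2 at -0.24, none of them past the threshold.

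Of 9 centromere and kinetochore genes, 1 was higher and 2 were lower (33.3% called, beside 41.9% of all genes). Cenpf, which encodes a large protein of the outer kinetochore, read 613.3, 730.4 and 966.2 in the pRb-deficient cultures, against 1683, 1512 and 1587 in the pRb-expressing cultures. This was the largest fall of the set, at a log2 fold change of -1.07 (SE 0.16, limma adjusted p = 0.00212). Both other Cenpf probe sets were dimmer and did not pass (-0.41 and -0.65, adjusted p = 0.101 and 0.144). With all its probe sets averaged Cenpf was still lower (-0.71, adjusted p = 0.0115). Cenpa, the histone H3 variant that marks centromeres, read 3227, 3752 and 4846 in pRb-deficient against 2561, 2690 and 2450 in pRb-expressing cultures (0.60, adjusted p = 0.0165). That call ended when all probe sets of a gene were averaged (0.39, adjusted p = 0.119). The Ndc80 complex, the microtubule coupler of the kinetochore, has 4 subunits, and these did not move together. Spc25 read 667.7, 865.2 and 1265 in pRb-deficient against 1569, 1523 and 1598 in pRb-expressing cultures and was called lower (-0.80, adjusted p = 0.0254). A dimmer Spc25 probe set was not called (-0.36, adjusted p = 0.218). Nuf2 read 650.4, 1038 and 1456 in pRb-deficient against 1772, 1725 and 1715 in pRb-expressing cultures, all below, and just missed (-0.80, adjusted p = 0.053). Spc24, at 440.6, 800.7 and 893.9 in pRb-deficient against 611.7, 587.7 and 503.4 in pRb-expressing cultures, and Ndc80, at 440.2, 502.0 and 405.6 in pRb-deficient against 415.2, 369.5 and 434.5 in pRb-expressing cultures, overlapped between the groups, with log2 fold changes of 0.27 and 0.14. The centromeric kinesin Cenpe (0.03) and the inner kinetochore genes Cenph (0.04) and Cenpk (0.01) lay close to 0, with 95% intervals reaching at most 0.49 in size.

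**Figure D4:**
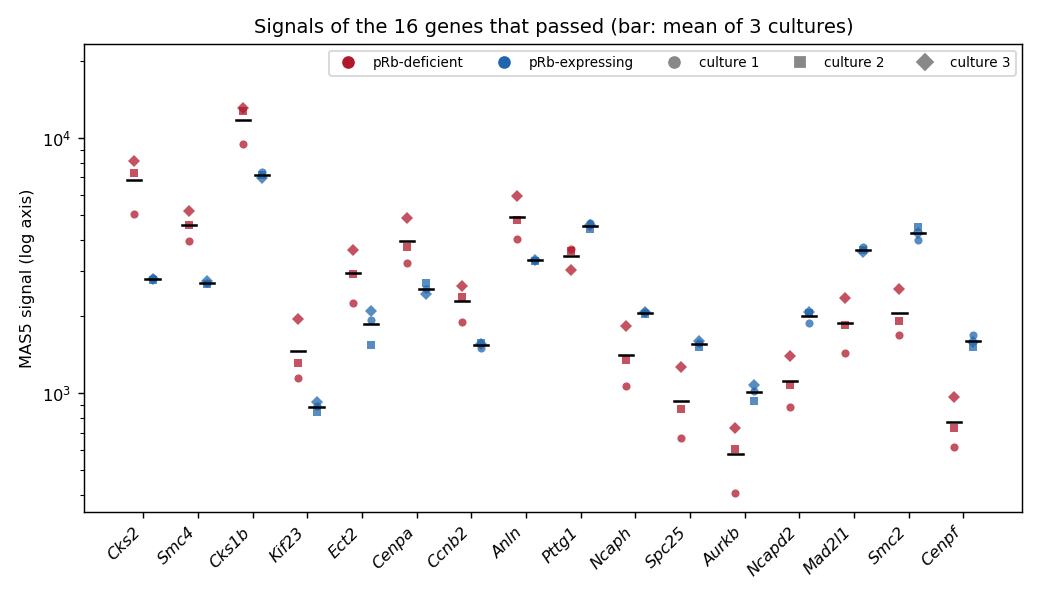
MAS5 signal (log axis) of the 16 mitotic genes called between the groups, in 3 pRb-deficient (red, left of each pair) and 3 pRb-expressing cultures (blue); symbols mark the culture and black bars the means. The pRb-deficient points are spread in one order, culture 1 lowest and culture 3 highest, for all genes shown but Pttg1.

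Condensin, the ring complex that compacts mitotic chromosomes, was split. Its core ATPases are a pair, and they were called in opposite directions. Smc2 read 1693, 1912 and 2570 in the pRb-deficient cultures, against 3992, 4476 and 4244 in the pRb-expressing cultures (log2 fold change -1.06, SE 0.15, limma adjusted p = 0.00165). Smc4 read 3940, 4568 and 5175 in pRb-deficient against 2699, 2683 and 2743 in pRb-expressing cultures (0.74, SE 0.10, adjusted p = 0.00143). Neither pair of ranges overlapped, and further probe sets gave the same directions. Smc4 was also higher at 0.84 and 1.02 (adjusted p = 0.00056 and 0.000249), and Smc2 was also lower at -1.04 and -1.17 (adjusted p = 0.0165 and 0.00376). Of the subunits particular to condensin I, Ncapd2 read 883.3, 1072 and 1403 in pRb-deficient against 1878, 2056 and 2071 in pRb-expressing cultures (-0.86, adjusted p = 0.00573). Ncaph, the kleisin that closes the ring, read 1071, 1344 and 1825 in pRb-deficient against 2075, 2047 and 2080 in pRb-expressing cultures (-0.58, adjusted p = 0.0422). That call was lost in 8 of 17 other limma fits, more than for any other called member. Among them were the fits with arrays centred on their medians (adjusted p = 0.0769) and with chromosome medians removed (adjusted p = 0.286). Ncapg was not called (0.22), nor was Top2a (-0.34), the topoisomerase that untangles sister chromatids. Of these 6 genes 1 was higher and 3 were lower (66.7% called, beside 41.9% of all genes).

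Ratios inside an array show how unequal the changes of partners were, since the swing between cultures mostly cancels in them. The 3 pairs given here were picked after their values were seen, so they carry no test, and a ratio of probe sets is not a ratio of transcripts. The log2 ratio of Smc4 to Smc2 was 1.22, 1.26 and 1.01 in the pRb-deficient cultures, against -0.56, -0.74 and -0.63 in the pRb-expressing cultures, a difference of 1.81. That of Cdca8 to Aurkb was 2.79, 2.75 and 2.83 in pRb-deficient against 1.39, 1.44 and 1.32 in pRb-expressing cultures, a difference of 1.41. That of Spc24 to Nuf2 was -0.56, -0.37 and -0.70 in pRb-deficient against -1.53, -1.55 and -1.77 in pRb-expressing cultures, a difference of 1.07. In each pair the ranges of the groups lay apart. With the median change of each gene's chromosome subtracted, an alternative chosen after seeing the data, the differences were 1.74 for Smc4 to Smc2, 0.83 for Cdca8 to Aurkb and 0.29 for Spc24 to Nuf2.

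Among mitotic kinesins 1 of 5 was called (20%, beside 41.9% of all genes). Kif23, the motor of the centralspindlin complex at the midzone, read 1142, 1318 and 1945 in the pRb-deficient cultures, against 892.7, 843.5 and 923.0 in the pRb-expressing cultures (log2 fold change 0.69, SE 0.19, limma adjusted p = 0.0264), a call that ended when its probe sets were averaged (0.33, adjusted p = 0.181). Kif11, which separates spindle poles (-0.11), Kif20a (0.14), the chromokinesin Kif4 (0.40) and the microtubule depolymerase Kif2c (-0.12) did not pass. In cytokinesis, 2 of only 3 genes were higher (66.7% called, beside 41.9% of all genes). Anln, the actin-binding scaffold of the cleavage furrow, read 4017, 4780 and 5928 in pRb-deficient against 3318, 3292 and 3333 in pRb-expressing cultures (0.55, adjusted p = 0.0182), and Ect2, the exchange factor that activates RhoA there, read 2263, 2938 and 3646 in pRb-deficient against 1943, 1542 and 2108 in pRb-expressing cultures (0.65, adjusted p = 0.0367). All pRb-deficient cultures were above all pRb-expressing ones for both, but the Ect2 call was lost in 7 of 17 other limma fits, among them those without the intensity trend (adjusted p = 0.0625) and with chromosome medians removed (adjusted p = 0.0591). Prc1, the microtubule bundler of the midzone, did not pass (0.17).

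At anaphase, Pttg1 was the 1 gene of 4 called (25%, beside 41.9% of all genes). It encodes securin, the inhibitor of separase, and read 3672, 3606 and 3046 in the pRb-deficient cultures, against 4627, 4379 and 4572 in the pRb-expressing cultures (log2 fold change -0.40, SE 0.09, limma adjusted p = 0.0107). It was also the member with pRb-deficient culture 1 the highest and culture 3 the lowest of the group. Separase itself, Espl1 (0.29), the APC/C activator Cdc20 (0.25) and the ubiquitin-conjugating enzyme Ube2c (0.36) had positive estimates and did not pass. Mki67, the proliferation marker that coats mitotic chromosomes, read 1917, 2458 and 3681 in pRb-deficient against 3329, 3119 and 3087 in pRb-expressing cultures and did not pass (-0.30, adjusted p = 0.357), with pRb-deficient cultures on both sides of the pRb-expressing range.

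Direction went with the chromosome on which a gene lies. The median log2 fold change of all genes averaging 200 or more in signal differed between chromosomes, at -0.58 on chromosome 6, -0.52 on chromosome 11 and -0.50 on chromosome 1, against 0.33 on chromosome 13 and 0.28 on chromosome 9. The 49 members lay on 16 chromosomes. Of 23 members on chromosomes with a negative median 7 were lower and 0 higher, with a median of -0.34. Of 26 on chromosomes with a positive median 8 were higher and 1, Smc2 on chromosome 4, was lower, with a median of 0.26. Across the members, log2 fold change and chromosome median had a Pearson r of 0.71 and a Spearman rho of 0.70, given as a description since members of 1 chromosome share its median.

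**Figure D5:**
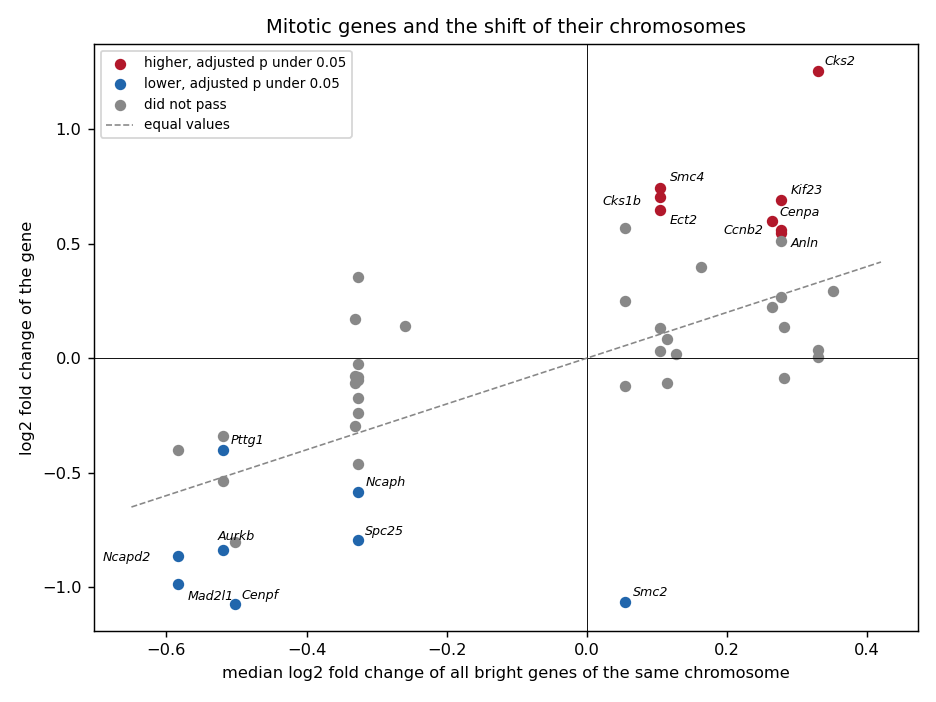
Log2 fold change of each of the 49 mitotic genes (vertical axis) against the median log2 fold change of all genes of its chromosome that averaged 200 or more in signal (horizontal axis), pRb-deficient over pRb-expressing. The 8 genes called higher (red) all lie right of 0, and 7 of the 8 called lower (blue) lie left of it.

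With the chromosome medians subtracted before the fit, 6 members were higher and 2 lower, and 5 of the 16 calls were kept. Those were Cks2 (0.93, limma adjusted p = 0.0056), Smc4 (0.64, adjusted p = 0.00291), Cks1b (0.60, adjusted p = 0.0107), Smc2 (-1.11, adjusted p = 0.00124) and Cenpf (-0.58, adjusted p = 0.0283). The same 5 genes were called in each of the 17 other settings fitted with limma. Among the rest, Ncaph lost its call in 8 of the 17, Ect2 in 7, and Cenpa, Kif23 and Spc25 in 6 each. Ube2c (0.68), Ndc80 (0.38) and Bub3 (0.24), which had not passed the test above, were called higher with chromosome medians subtracted. For Bub3 this reversed the direction. Its estimate in the main fit was -0.11, and all its pRb-deficient signals lay below all its pRb-expressing ones. Mad2l1 came to -0.41 (adjusted p = 0.109), Ncapd2 to -0.29 (adjusted p = 0.219) and Aurkb to -0.30 (adjusted p = 0.277). What part the chromosome shifts had in these differences was not tested.

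Outside the set, 125 of 127 further mitotic genes were tested, with 25 higher, 31 lower and a median log2 fold change of -0.04. Called genes were thus 44.8% of the 125, near the 41.9% of all genes tested. The order with pRb-deficient culture 1 lowest and culture 3 highest held for 79 of the 125 (63.2%), beside 23.3% of all genes. The largest rise was that of Mad1l1, the gene of Mad1, which holds Mad2 at kinetochores, at 1771, 1525 and 1588 in the pRb-deficient cultures, against 132.7, 209.7 and 132.6 in the pRb-expressing cultures (log2 fold change 3.39, SE 0.19, limma adjusted p = 3.37e-05). Here the groups were separated widely, and the cultures did not take the order of the mitotic members. Trip13, the ATPase that disassembles checkpoint complexes (0.79), and the cohesin regulators Wapl (0.73) and Pds5a (0.70) followed. The largest falls were those of Ccnf (-1.26), an F-box subunit of SCF ligases, Cdca3 (-1.24), the microtubule-associated Ckap2 (-1.22) and Fam83d (-1.12), a spindle protein. Ckap2 read 1116, 1551 and 1731 in pRb-deficient against 3376, 3302 and 3400 in pRb-expressing cultures (adjusted p = 0.001).

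The further genes were also counted by role, beside the 18.5% of all genes that were higher and the 23.4% that were lower. Of 15 genes of condensin II and of cohesin and its regulators, with the topoisomerase gene Top2b counted among them, 8 were higher and 0 lower. The 8 were Ncaph2, Nipbl, Pds5a, Rad21, Smc1a, Stag1, Top2b and Wapl. All 8 lie on chromosomes with a positive median, and with chromosome medians removed 2 of the 15 were higher and 1 was lower. Of the condensin II subunits, Ncaph2 was called although its groups overlapped, and Ncapd3 (-0.07) and Ncapg2 (0.17) were not called. Rad21, the cohesin kleisin, read 6952, 7788 and 8104 in the pRb-deficient cultures, against 5173, 5273 and 5001 in the pRb-expressing cultures (log2 fold change 0.56, limma adjusted p = 0.00136). Of 7 genes of the MuvB and DREAM complexes 4 were higher (E2f4, Lin54, Rbbp4 and Tfdp1) and 0 lower, against 2 higher and 0 lower with chromosome medians removed. Further kinetochore genes had 0 higher and 7 lower of 24, and further kinesin and spindle genes 1 higher and 8 lower of 25. With chromosome medians removed these counts were 2 higher and 1 lower for the kinetochore and 2 higher and 5 lower for kinesins and spindle. These counts by role without the chromosome shift were added after seeing the data. For DNA replication, 46 of 47 listed genes were tested, with 9 higher and 10 lower (median -0.13). That is 41.3% called, near the 41.9% of all genes tested. Of the 46 genes 33 (71.7%) had pRb-deficient culture 1 lowest and culture 3 highest, beside 23.3% of all genes.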

How the data were processed

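The authors computed MAS5 signal intensities with Affymetrix Expression Console 1.1 and scaled each array to a target of 500; the deposited table holds these intensities for 6 arrays. No array was left out. Of 45101 probe sets 64 controls were removed, intensities under 32 were set to 32, and the 6610 probe sets at or below 32 on all arrays were dropped, leaving 38427, since 24.4 to 26.6% of signals per array were at or below that floor. Of 45037 probe sets the platform annotation gave 1 symbol for 34945, several for 932 and none for 9160. Log2 values were tested in limma 3.58.1 (R 4.3.3; lmFit, eBayes with an intensity trend), two-sided, with Benjamini-Hochberg adjustment over all probe sets tested, after checks on simulated data. The number of arrays limits the precision. Values in every culture are given for members called with at least a 2-fold change, the lowest adjusted p of each role, Mki67, Foxm1, Mybl2 and members within 0.02 of the threshold; others were added after their values were seen. Of the further mitotic genes up to 4 rises and 4 falls with no overlap are named. Members and lists were chosen with earlier results of these data known. Promoters are from RefSeq (GRCm38.p6). Alternatives covered floor, pseudocount, filter, normalization, array weights, chromosome shift, probe set choice, replicate block, a rank test and leaving out each culture. Replicate numbers are not stated to pair the cultures, and the main fit did not pair them.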

Additional observations from a re-analysis of the deposited data

How the results depend on the processing

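The number of mitotic members called changed with array weights, with the chromosome shift and with single cultures left out. The share of all genes called in these other fits is not given here. Whether the changes in count are particular to the lists below thus cannot be told. With array quality weights 15 members were higher and 14 lower (8 and 8 otherwise), and 35 DNA replication genes were called (19 otherwise). With chromosome medians removed 2 members and 16 further mitotic genes were lower. Many members changed sign in that fit. Pttg1 (0.14), Mki67 (0.053), Foxm1 (0.17), Top2a (0.20), Bub3 (0.24) and others went from negative to positive. Cdk1 (-0.12), Cenpk (-0.32) and others went from positive to negative. With a change of at least 2-fold also required, 1 member was higher and 2 lower, 1 further mitotic gene was higher and 5 lower, and 5 replication genes were called. The exact rank-sum test called 0 members, 0 further mitotic and 0 replication genes, since the smallest two-sided p of 3 against 3 cultures is 0.1. Leaving out 1 culture at a time gave 3 to 13 members higher and 4 to 15 lower, 13 to 29 further mitotic genes higher and 16 to 40 lower, and 11 to 25 replication genes. The median member log2 fold change lay between -0.18 and 0.17 in those fits. Rb1 kept its call in all 17 other limma fits. Deviations of same-numbered cultures correlated at 0.02, -0.03 and 0.06. The sources used here do not state whether the numbers pair cultures, and these correlations cannot settle it. A fit with the replicate block called 9 members higher and 9 lower, 23 further mitotic genes higher and 31 lower. The cause of the other changes was not tested. Probe sets under a signal of about 100, which were 46.1 to 48.5% of each array, lie close to background, and the members lay above that.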
